A study of Homo sapiens with 42 samples.

Results

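The genes described here encode the subunits of the mitochondrial respiratory chain and ATP synthase, whose messenger RNAs come from 2 genomes. The members are the 13 protein genes of mitochondrial DNA and the nuclear genes whose symbols begin as those of subunits of complexes I to V do (NDUFA, NDUFB, NDUFC, NDUFS or NDUFV with a digit, SDHA to SDHD, UQCR, CYC1, COX4 to COX8 and ATP5). These symbols took in 116 of the 30182 entries of the deposited table: the 13 mitochondrial genes and 103 nuclear matches. Of the nuclear matches, 85 were subunit genes, 12 were pseudogenes, 3 were antisense or divergent transcripts, 2 were read-through transcripts and 1 was ATP5IF1, an inhibitor protein of ATP synthase. All 13 mitochondrial and 81 of the 85 nuclear subunit genes had a mean normalized count of 10 or more and were tested among 14331 genes. By complex, the mitochondrial genes were 7 of complex I, 1 of complex III, 3 of complex IV and 2 of complex V, and the tested nuclear subunit genes were 36 of complex I, 4 of complex II, 10 of complex III, 14 of complex IV and 17 of complex V.

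RNA came from HAP1, a near-haploid adherent human line derived from a chronic myeloid leukaemia. Besides wild type cells (wt), the labels name lines without 1 DNA glycosylase, called neil1, neil2 and neil3 after the missing NEIL gene, and lines without all 3, called neil123; no other allele is named. Each genotype was kept in media alone or given 200 µM buthionine sulfoximine (BSO), an inhibitor of the first enzyme of glutathione synthesis, for 48 h from 4 h on. Each treatment had 7 libraries of wt, 3 of neil1, 3 of neil2, 4 of neil3 and 4 of neil123. As the sample names read, they came from the lines wt 1.1, 1.3 and p1, neil1 12 and 13, neil2 11 and 12, neil3 1 and 2, and neil123 1 and 2, so that each knockout rests on 2 lines, of which neil1 12 and neil2 12 were sampled once per treatment. All titles but those of the unlettered wt libraries speak of biological replicates, without saying whether these were separate cultures, so p-values describe the scatter among the libraries, part of which could be technical.

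Complexes I, III and IV pass electrons from NADH to oxygen and pump protons across the inner membrane, complex II feeds in electrons from succinate, and complex V uses the proton gradient to make ATP. Mitochondrial DNA is transcribed from both strands as long polycistronic RNAs, which are cut at the transfer RNAs between the genes into messenger RNAs with their own lifetimes, whereas each nuclear subunit gene has its own promoter. Complex II is encoded by nuclear genes only, and all the others need subunits from both genomes. Glutathione, which BSO depletes, is also taken up into mitochondria and protects against the peroxides that the chain gives off.

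Several mitochondrial reading frames overlap, and where reads are shared the genes of a pair cannot be counted apart. ATP8 and ATP6, subunits of the membrane part of ATP synthase, share 46 bases (positions 8527 to 8572 of the mitochondrial genome, GRCh38), which are 22.2% of the 207 bases of ATP8. ND4L and ND4, membrane subunits of complex I, share 7 bases (10760 to 10766), and ATP6 and COX3 share 1 base (9207). The first members of the 2 overlapping pairs are printed because their values below may depend on how reads in the overlap were counted, which is not given in the sources used here. Capitals mark the bases that also belong to ATP6 or to ND4.
ATP8: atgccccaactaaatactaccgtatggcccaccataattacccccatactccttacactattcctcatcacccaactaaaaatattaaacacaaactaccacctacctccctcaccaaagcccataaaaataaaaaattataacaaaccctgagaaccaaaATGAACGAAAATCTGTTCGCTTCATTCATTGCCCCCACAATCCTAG
ND4L: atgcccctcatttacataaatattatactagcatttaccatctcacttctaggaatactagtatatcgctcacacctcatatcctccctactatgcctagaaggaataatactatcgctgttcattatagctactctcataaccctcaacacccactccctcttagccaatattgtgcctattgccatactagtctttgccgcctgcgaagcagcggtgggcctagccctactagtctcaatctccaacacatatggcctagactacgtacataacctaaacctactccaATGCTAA

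The 18 libraries with no final letter (unlettered: all of neil1 and neil2, and 3 wt libraries per treatment) had depths of 29.9 M to 30.7 M reads, and the 24 with names that end in A or B (lettered; 4 wt per treatment, neil3 and neil123) held 26.8 M to 28.7 M reads. The letter names a biological replicate in the titles, and no date or batch is given for either set. Because only wt holds both kinds, a difference between a neil1 or neil2 line and a neil3 or neil123 line cannot be told apart from one between label sets. NEIL2 had 170 to 328 normalized counts (median 230) in the 14 libraries labelled for its loss and 309 to 613 (median 422) in the 28 others, and NEIL3 had 381 to 714 in 16 and 590 to 827 in 26; both pairs of ranges overlapped. The NEIL1 ranges overlapped almost wholly (284 to 1127 against 293 to 1148), so its level does not check the neil1 label. Of markers, vimentin (VIM, 11764 to 22134) and N-cadherin (CDH2, 2575 to 7635) were high, the blood genes PTPRC, GATA1 and ITGAM reached at most 2.92, 2.07 and 2.01, and CD34 (1.02 to 716) and EPCAM (3.05 to 258) varied. In bulk RNA, fewer cells of a kind and less RNA per cell cannot be told apart.

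Per length, 12 of the 13 mitochondrial messengers had higher mean levels in wt cells in media than any nuclear member, and ND6 was below 1 of them. COX3, a core subunit of complex IV, had 145230 ± 10881 normalized counts per kilobase of exon (SD, n = 7), followed by COX2 with 100788, ATP6 with 82283, COX1 with 78771 and ND4 with 72061. ND3, ND4L and ND1 were near each other (58329, 58202 and 57820), as were ND2 (44957) and CYTB (39136), and ATP8 (27376), ND5 (17819) and ND6 (12092) were lowest. The highest nuclear member, ATP5F1B (the catalytic beta subunit of ATP synthase), had 14991 ± 1266 counts per kilobase, between ND5 and ND6. COX5A (6878), NDUFS5 (6207), COX8A (5940) and COX6B1 (4886) came next among nuclear genes. The length used is the union of all annotated exons of a gene, so this order depends on the annotation, as does the distance between the genomes. ATP5F1A, with a mean of 22130 counts over all libraries, was divided by 10908 bases and had 1970 per kilobase.

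At the other end, 5 tested subunit genes stayed at low counts. COX6B2 (a testis form of COX6B) ranged from 5.85 to 40.0 normalized counts over the 42 libraries, NDUFV2 from 22.6 to 51.0, NDUFA7 from 23.6 to 57.7, NDUFA4L2 from 23.4 to 92.2 and NDUFA13 from 24.5 to 120. NDUFV2, NDUFA7 and NDUFA13 encode subunits of complex I, and reads of NDUFV2 can be shared with its antisense transcript NDUFV2-AS1 (13.3 to 35.6). Whether the way reads were assigned set these values was not tested. The 4 untested subunit genes were COX4I2 (at most 2.0), ATP5MGL (1.99), COX8C (6.04) and COX7A1 (5.73), the last a heart and muscle form of COX7A. No read-through transcript and 1 of the 12 pseudogenes, NDUFB4P12, reached the level for a test.

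With BSO, the summed level of the 13 mitochondrial genes was higher in 19 of 21 pairs of libraries with the same name. In wt their share of the library total in media and with BSO was 2.20% and 2.64% in 1.1, 2.34% and 3.20% in 1.1A, 2.70% and 3.02% in 1.1B, 2.45% and 4.13% in 1.3, 2.20% and 3.08% in 1.3A, 2.55% and 3.24% in 1.3B, and 2.62% and 2.95% in p1. All 7 wt pairs went up, and library 1.3 with BSO stood far above the others. The neil1 pairs went from 2.22% to 4.55% (12), 1.70% to 2.90% (rep13.1) and 2.50% to 3.0% (rep13.2), and the neil2 pairs from 3.07% to 4.09% (rep11.1), 3.53% to 4.66% (rep11.2) and 2.34% to 2.81% (12). The neil3 pairs went from 2.01% to 3.34% (1A), 2.35% to 3.39% (1B), 2.37% to 2.71% (2A) and 2.34% to 3.15% (2B). All 10 of these pairs went up as well. In neil123 the shares were 1.86% and 2.10% (1A), 2.48% and 2.75% (1B), 2.55% and 2.38% (2A), and 2.58% and 2.55% (2B), higher with BSO in line 1 and lower in line 2.

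**Figure D1:**
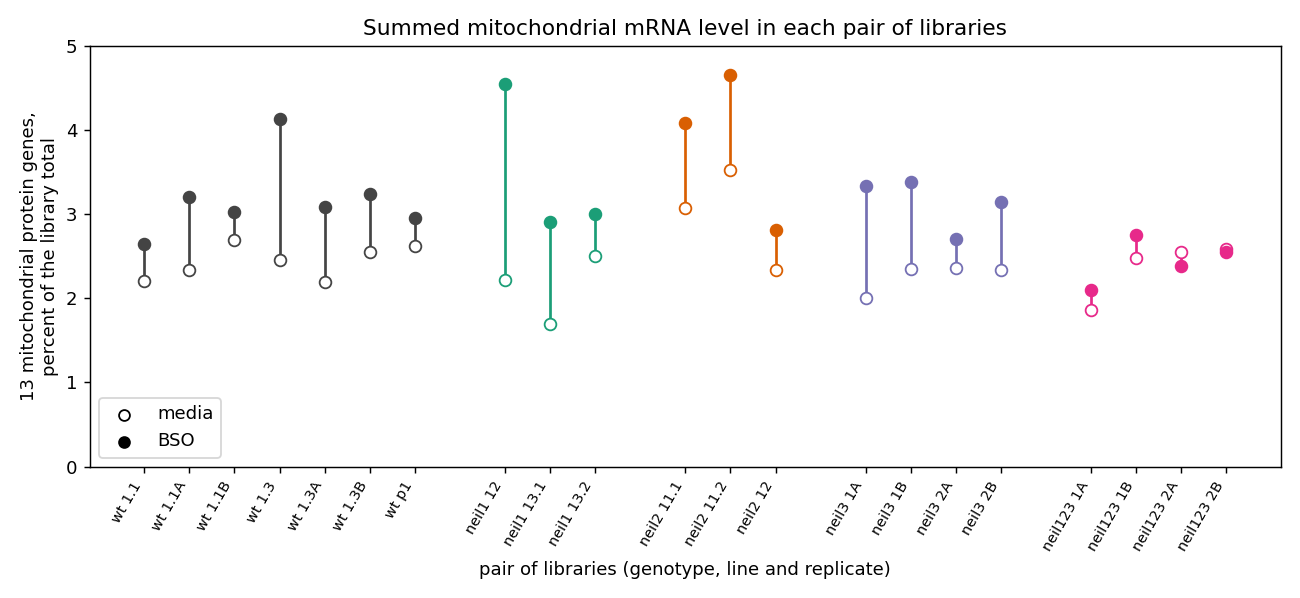
Share of the library total taken by the 13 mitochondrial protein genes (y axis, percent) in each of 21 pairs of libraries (x axis), with media and BSO libraries of a pair joined by a line. The share was higher with BSO in all pairs of wt, neil1, neil2 and neil3 and in line 1 of neil123; the highest value was 4.66% (neil2 rep11.2 with BSO).

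As a log2 ratio of BSO to media, the summed mitochondrial level changed by 0.40 ± 0.23 in wt (mean ± SD, n = 7 pairs, 0.17 to 0.84), 0.70 ± 0.40 in neil1 (n = 3), 0.39 ± 0.09 in neil2 (n = 3), 0.47 ± 0.23 in neil3 (n = 4) and 0.06 ± 0.14 in neil123 (n = 4, -0.09 to 0.20). The neil123 values overlapped those of wt only at the lower end. Within the label sets of wt the unlettered pairs changed by 0.31, 0.84 and 0.19 and the lettered pairs by 0.46, 0.17, 0.48 and 0.34, so both sets held small and larger changes.

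Gene by gene, limma called 7 of the 13 mitochondrial genes higher with BSO in wt, against a background of 7.24% of all 14331 genes called higher, and 0 lower (background 6.28%). With other scalings the split of all calls in wt shifted from 53.6% higher to 40.4% (libraries scaled to equal totals), and 7 mitochondrial genes were called with that scaling too. The median change of the 13 was 0.40 on the log2(value + 1) scale, against 0.00 for all genes tested. The called genes belong to complexes I (ND2, ND3, ND4, ND4L), III (CYTB) and IV (COX1, COX2), and neither gene of complex V passed. Fitted with the replicate name as a block, 10 of 13 were called (background 16.0% higher and 15.6% lower), the added ones being ATP6, ND5 and ND6.

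COX1, the catalytic subunit of cytochrome c oxidase (complex IV), had the largest change in wt. Its normalized counts in media had a lowest value of 106603, a median of 118102 and a highest of 134751, and with BSO 157047, 191440 and 266818. Every BSO library lay above every media library. The fitted change was 0.68 ± 0.13 (SE; limma adjusted p = 0.00027). COX2, which receives electrons from cytochrome c, had 60607, 67832 and 80909 in media and 91681, 95202 and 148909 with BSO, again without overlap, and rose by 0.57 ± 0.12 (adjusted p = 0.0015).

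COX3, encoded by the same genome and part of the same complex, did not follow. Its lowest, median and highest counts in wt were 103116, 113012 and 127784 in media and 101243, 109108 and 150655 with BSO. The groups overlapped over nearly their whole range, and the fitted change was -0.01 ± 0.12 (adjusted p = 0.99). In each of the 21 pairs of the series the signed change of COX1 was above that of COX3, by 0.38 to 0.93 (median 0.73). That of COX2 was above that of COX3 by 0.22 to 0.87.

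CYTB, the only mitochondrial subunit of complex III and the carrier of its quinone sites, had 35206, 44440 and 55625 counts in media and 56669, 60103 and 91035 with BSO in wt (lowest, median and highest). These groups did not overlap, and CYTB rose by 0.52 ± 0.12 (adjusted p = 0.0033). Of the membrane subunits of complex I, ND4 (87369, 100264 and 110844 against 115894, 134405 and 194769) and ND2 (41431, 48345 and 52360 against 53890, 65374 and 79968) did not overlap either, whereas ND3 and ND4L did in part. They rose by 0.48 (ND4, adjusted p = 0.0075), 0.45 (ND2, 0.0038), 0.46 (ND3, 0.0033) and 0.40 (ND4L, 0.0177). ND1 (0.18), ND5 (0.25), ND6 (0.27), ATP6 (0.22) and ATP8 (0.05) did not pass. The calls of COX1, COX2, CYTB, ND2, ND3 and ND4 were kept when any 1 of the 14 wt libraries was left out, and that of ND4L was lost without the library 1.3 with BSO.

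In neil1 and neil3, COX1 and COX2 again had the largest changes. For neil1, limma called 6 mitochondrial genes higher (background 0.823%) and 0 lower (0.321%): COX1 by 0.97 ± 0.19 (adjusted p = 0.0053), COX2 by 0.97 ± 0.19 (0.0051), ND4L, ND2, ND4 and CYTB. The COX1 counts were 122306 and 303026 in pair 12, 84876 and 184608 in pair rep13.1, and 127636 and 178606 in pair rep13.2 (media and BSO), so that pair rep13.2 changed least. All 6 calls were lost without the BSO library of pair 12, which left 0 called, and also without the media library of pair rep13.1. Under the block 11 of 13 were called (background 4.11% and 3.53%). The median change of the 13 genes was 0.62, against -0.01 for all genes. Of all neil1 calls 72.0% were higher, or 61.1% with equal totals.

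For neil3, 7 of 13 were called higher (background 3.36%) and 0 lower (2.92%), with a median change of 0.52 against -0.01 for all genes. COX1 went from 99313 to 208500 (1A), 117023 to 203533 (1B), 110506 to 161593 (2A) and 107021 to 185357 (2B), without overlap. It rose by 0.80 ± 0.17 (adjusted p = 0.0018), and COX2, ND4, ND4L, CYTB, ND3 and ND2 rose by 0.67, 0.60, 0.60, 0.58, 0.55 and 0.52. The calls of COX1 and COX2 were kept whichever neil3 library was left out, whereas 3 genes were called without the BSO library of 1A. COX3 changed by -0.06.

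For neil2, limma called 0 mitochondrial genes (background 0.14% higher and 0.014% lower), and edgeR called 0. At an unadjusted p under 0.05 there were 7 (53.8%, against 8.12% of all genes). All 13 fitted changes were above 0 (0.04 to 0.56, median 0.39, against 0.00 for all genes), and COX1 was higher in each pair, from 170896 to 268384 (rep11.1), 206993 to 298506 (rep11.2) and 122501 to 172565 (12). Line 11 was above line 12 in both treatments. With the block, 7 were called higher (background 3.69% and 2.07%). Of all neil2 calls 90.9% were higher, or 64.0% with equal totals.

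For neil123, limma also called 0 (background 1.33% and 0.272%), and edgeR called 0. At an unadjusted p under 0.05 there was 1 (7.69%, against 10.3% of all genes). Here the fitted changes ran from -0.32 to 0.35 with a median of 0.09. COX1 was still higher in each pair, from 91653 to 128381 (1A), 119375 to 165786 (1B), 119139 to 138682 (2A) and 121850 to 142447 (2B). COX3 was lower in each, from 89758 to 74185, 115829 to 97060, 125636 to 92193 and 125583 to 107866 in the same order. With the block these were the 2 genes called (background 5.55% and 3.31%): COX1 rose by 0.35 ± 0.10 (adjusted p = 0.0199) and COX3 fell by 0.30 ± 0.09 (adjusted p = 0.0275).

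**Figure D2:**
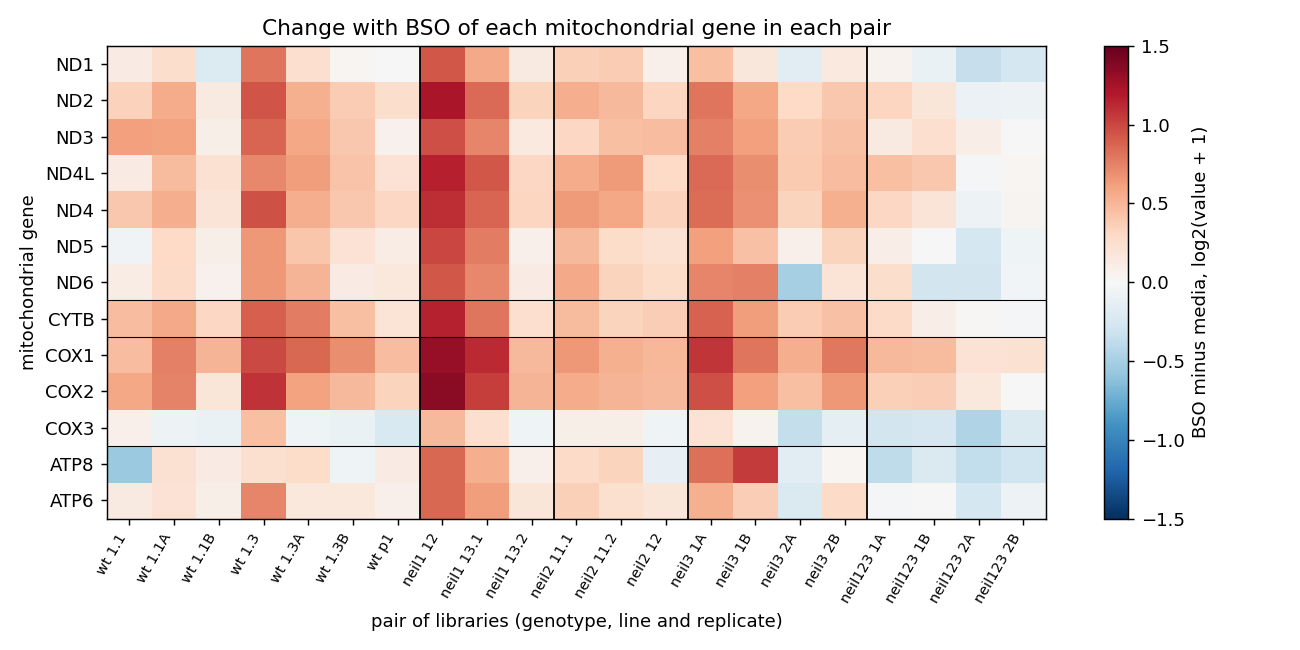
Heat map of the change with BSO, on the log2(value + 1) scale, of each mitochondrial gene (rows) in each of 21 pairs of libraries (columns). The COX1 row is above 0 in all 21 pairs, and the COX3 row is above 0 in 8 and among the 3 lowest signed changes in every column.

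Within a pair the 13 genes were ranked by their signed change, so that a low place can be a large fall, and some held steadier places than others. COX1 was the highest of the 13 in 15 of 21 pairs and among the 3 highest in 20. COX3 was among the 3 lowest in 21 and the lowest in 13. ATP8 was the highest in 1 pair and the lowest in 5, and ND6 was among the 3 highest in 2 pairs and the lowest in 2. COX1 was higher with BSO in 21 pairs, COX2, ND3, ND4L, ND4 and CYTB in 20, ND2 in 19, ATP6, ND5 and ND6 in 17, ND1 in 15, ATP8 in 13 and COX3 in 8. The signed change of ND4 was above that of ND1, another membrane subunit of complex I, in all 21 pairs, by 0.15 to 0.52. These counts describe messengers cut from shared precursor RNAs, and pairs of a line are not independent of each other.

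Within wt, ATP8 and ND6 differed by label set. In media ATP8 had 7839 ± 779 counts in the unlettered libraries (n = 3) and 4037 ± 249 in the lettered ones (n = 4), 1.94 times as many, without overlap. ND6, the only mitochondrial protein gene on the other strand, had 8717 ± 190 and 4572 ± 900, a ratio of 1.91. The other 11 mitochondrial genes overlapped between the sets, with ratios of lettered to unlettered of 0.834 to 1.19. Of the 81 nuclear subunit genes 34 did not overlap (42%), near the 41.5% of all 14331 genes. Lettered libraries were lower for 24 (background 22.9%), among them ATP5PO and COX6B1 with 0.520 and 0.670 times the unlettered level, and higher for 10 (background 18.6%), among them NDUFA13 and ATP5MF with 2.08 and 1.43 times it. The label set is a term of the fit, and its part in these levels beyond that was not tested.

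The nuclear subunit genes did not move with the mitochondrial ones as a sum. Their share of the library total was 0.950% to 1.1% in all 42 libraries, and in wt 0.983% ± 0.0337 in media and 1.01% ± 0.0507 with BSO (SD, n = 7). The log2 ratio of BSO to media of their sum was 0.06 ± 0.11 in wt, 0.0021 ± 0.05 in neil1, 0.02 ± 0.02 in neil2, -0.03 ± 0.03 in neil3 and -0.0068 ± 0.04 in neil123. Over all pairs it ranged from -0.07 to 0.21, the highest being 0.21 in wt 1.1 and 0.20 in wt 1.3. The signed log2 change of the mitochondrial sum was above that of the nuclear sum in 20 of 21 pairs.

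**Figure D3:**
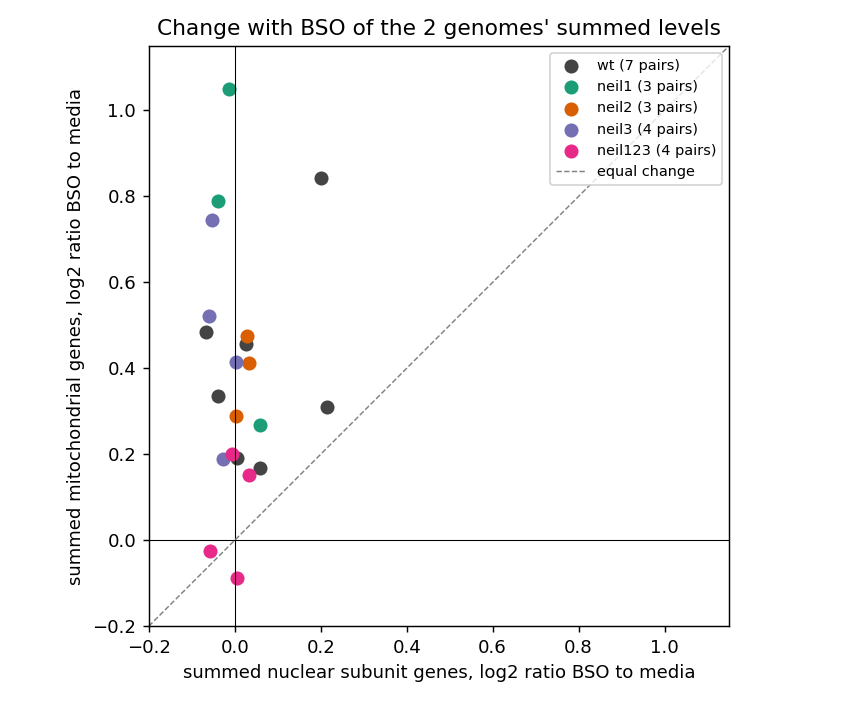
Log2 ratio of BSO to media of the summed nuclear subunit genes (x axis) and of the summed mitochondrial genes (y axis), 1 point per pair of libraries, by genotype. The points spread from -0.09 to 1.05 along the mitochondrial axis and from -0.07 to 0.21 along the nuclear axis.

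In wt 8 of 81 nuclear subunit genes were called higher with BSO, near the background of 7.24% higher given above. Of the 81, 0 were called lower, against 6.28% of all genes. The median change of the 81 was 0.04, against 0.40 for the mitochondrial genes. By complex, 3 of 36 were called in complex I, 0 of 4 in complex II, 1 of 10 in complex III, 4 of 14 in complex IV and 0 of 17 in complex V. With the block 23 were called higher and 0 lower, against 16.0% higher and 15.6% lower of all genes. In the lettered libraries alone 3 of 81 were called (background 3.19% higher and 2.11% lower), and in the unlettered ones alone 6 (3.84% and 3.89%).

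COX7A2L, which takes part in joining complexes III and IV into supercomplexes, was higher with BSO in all 21 pairs (by 0.01 to 0.35, median 0.17). Its lowest, median and highest counts in wt were 1765, 2079 and 2860 in media and 2086, 2268 and 3561 with BSO. These overlapped across the label sets, but within a set they did not, with 2819 ± 36.1 and 3398 ± 179 in the unlettered and 1909 ± 130 and 2191 ± 82.8 in the lettered libraries (media and BSO). It rose by 0.23 ± 0.04 in wt (adjusted p = 0.0003), and with the block also in neil1 (0.00386), neil2 (0.00505) and neil3.

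NDUFV1, which holds the NADH site of complex I, was higher in 20 of 21 pairs. In wt its counts were 6221, 7507 and 8152 in media and 7642, 8664 and 8895 with BSO, overlapping in part, and it rose by 0.20 ± 0.04 (adjusted p = 0.00041). With the block it also rose in neil1 (0.0414), neil3 and neil123 (0.0435). UQCRC1, a core subunit of complex III, had 6358, 7088 and 7238 in media and 7044, 7733 and 7913 with BSO, again with overlap, and rose by 0.14 (0.0095). NDUFA12, an accessory subunit of complex I, rose by 0.18 (0.0019).

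The largest nuclear subunit change past the threshold in wt and in neil3 was that of NDUFA4L2, a hypoxia-induced relative of the complex IV subunit NDUFA4, which is grouped with complex IV here. At low counts, of 28.8, 48.9 and 57.0 in media and 46.2, 71.9 and 91.7 with BSO in wt, it rose by 0.60 ± 0.17 (adjusted p = 0.0114), and the groups overlapped in part. In neil3 it went from 46.3 to 84.7 (1A), 59.9 to 92.2 (1B), 36.5 to 56.0 (2A) and 42.8 to 84.3 (2B) and rose by 0.76 ± 0.22 (adjusted p = 0.0281). It was higher with BSO in 20 of the 21 pairs. The wt calls of COX7A2L, NDUFV1, UQCRC1, NDUFA12 and NDUFA4L2 were kept in all 14 fits without 1 wt library. Among the other alternatives, COX7A2L lost its call without the label set term and in the lettered libraries alone, UQCRC1 in the lettered libraries alone, NDUFA12 in each label set alone, and NDUFA4L2 without the label set term and in the unlettered libraries alone, while NDUFV1 kept its call in each. Those of NDUFA2 (0.19), NDUFA4 (0.16) and COX5A (0.12) were kept in 8, 6 and 7 of the 14.

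In neil3, limma called NDUFA4L2 higher and NDUFA8 and UQCRFS1 lower. NDUFA8, an accessory subunit of complex I, went from 1970 to 1695 (1A), 2088 to 1863 (1B), 1954 to 1724 (2A) and 1867 to 1745 (2B), without overlap, and fell by 0.16 (adjusted p = 0.0398). It was also lower with BSO in 4 of 4 neil123 pairs, without a call there. UQCRFS1, the Rieske iron-sulfur protein of complex III, went from 5188 to 4317, 5255 to 4557, 5135 to 4585 and 4837 to 4467 in the same order, without overlap, and fell by 0.19 (0.0200). These 3 calls were kept in 2, 2 and 3 of 8 fits without 1 neil3 library (NDUFA4L2, NDUFA8 and UQCRFS1), and under the block 3 genes were called higher and 6 lower (background 9.84% and 10.6%). The median over the 81 genes was -0.04.

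In neil1, neil2 and neil123, limma called 0 nuclear subunit genes with BSO, and edgeR called 0 in each. At an unadjusted p under 0.05 there were 5, 5 and 6 (6.17%, 6.17% and 7.41%, against 10%, 8.12% and 10.3% of all genes). The block added 3 in neil1, 1 in neil2 and 3 in neil123, the last being NDUFC2 and NDUFV1 (higher) and COX6B2 (lower by 0.78 at low counts). Medians were 0.01, 0.03 and 0.0019. SDHA, SDHB, SDHC and SDHD, the whole of complex II, and the 17 tested nuclear genes of ATP synthase had no call in wt, neil1, neil2, neil3 or neil123 in the fit without the block.

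**Figure D4:**
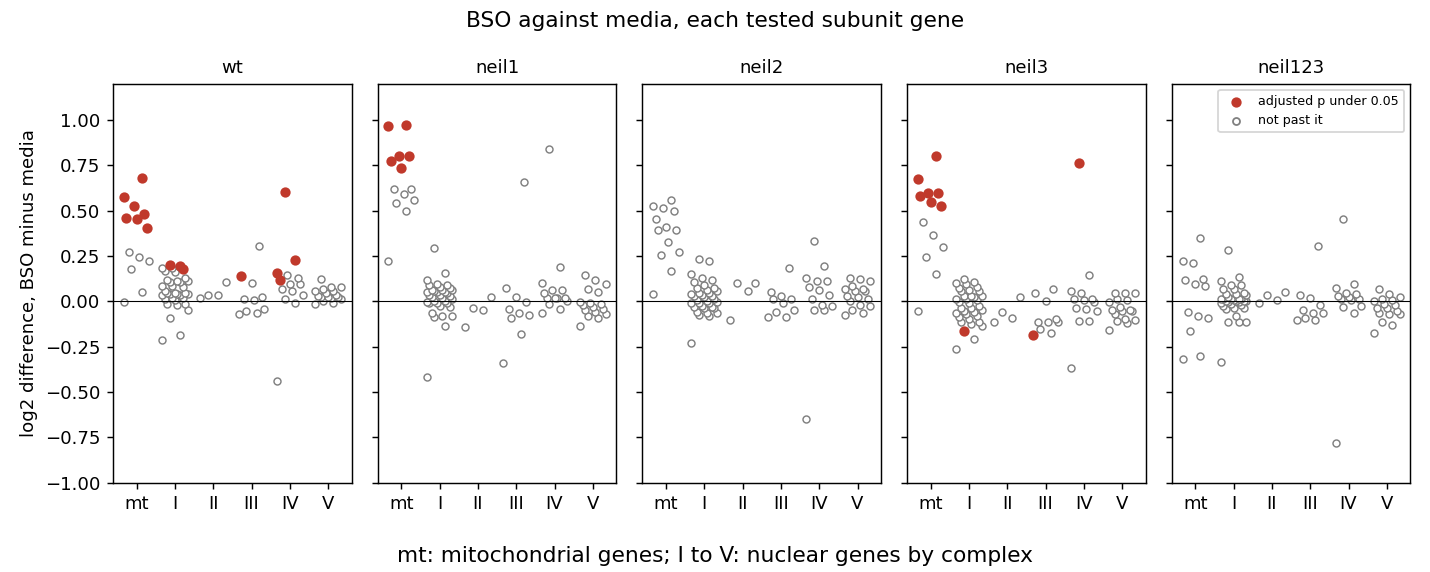
Fitted change with BSO (y axis, log2) of each tested gene in the 5 genotypes (panels), for the mitochondrial genes (mt) and the nuclear genes of complexes I to V; red points passed an adjusted p of 0.05 and open points did not. The mitochondrial medians were 0.40, 0.62, 0.39, 0.52 and 0.09 in wt, neil1, neil2, neil3 and neil123, and the nuclear medians lay between -0.04 and 0.04.

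The promoters of the nuclear genes were searched for the short motifs of factors known to act on respiratory genes, on both strands. RefSeq windows (GRCh38.p14, 250 bases before to 50 after the start) were found for 68 of the 85 nuclear subunit genes. The NRF1 motif GCATGCGC stood in 13 of them (19.1%, against 3.27% of all 27305 windows), the ETS motif CCGGAAGT in 10 (14.7% against 4.44%) and the YY1 motif AAGATGGCG in 8 (11.8% against 1.85%). CCAAT stood in 22 (32.4% against 35.7%), the antioxidant response motif TGACNNNGC in 10 (14.7% against 13.6%), TGATGAAA in 1 and TGATGCAA in 0. The 27305 windows were not limited to the 14331 genes tested, so these shares compare unlike sets of genes. Of the 17 nuclear genes called in any comparison 16 had a window, and 4 of these held an NRF1, ETS or YY1 match. This count was not compared with the share of all 68 windows that hold any of these motifs, so it describes no trait of the called genes. Those 4 are printed, with the matches in capitals: UQCRC1 (chr3:48609597-48609896, minus strand, YY1), NDUFS4 (chr5:53560389-53560688, plus strand, YY1), NDUFA8 (chr9:122159730-122160029, minus strand, NRF1 on both strands) and ATP5PD (chr17:75046920-75047219, minus strand, ETS on the opposite strand). A match describes letters, not a bound site.
UQCRC1: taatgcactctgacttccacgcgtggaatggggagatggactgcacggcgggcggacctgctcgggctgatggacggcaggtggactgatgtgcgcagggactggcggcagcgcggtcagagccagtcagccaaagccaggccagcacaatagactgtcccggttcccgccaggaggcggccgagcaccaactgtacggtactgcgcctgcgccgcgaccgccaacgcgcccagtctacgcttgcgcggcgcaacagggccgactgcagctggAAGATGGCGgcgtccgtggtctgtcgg
NDUFS4: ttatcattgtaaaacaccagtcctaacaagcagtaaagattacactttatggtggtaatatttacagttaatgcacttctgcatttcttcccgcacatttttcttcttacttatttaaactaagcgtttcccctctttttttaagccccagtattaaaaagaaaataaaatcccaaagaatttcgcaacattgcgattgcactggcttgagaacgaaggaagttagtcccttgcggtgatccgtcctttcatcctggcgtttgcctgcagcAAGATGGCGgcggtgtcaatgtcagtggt
NDUFA8: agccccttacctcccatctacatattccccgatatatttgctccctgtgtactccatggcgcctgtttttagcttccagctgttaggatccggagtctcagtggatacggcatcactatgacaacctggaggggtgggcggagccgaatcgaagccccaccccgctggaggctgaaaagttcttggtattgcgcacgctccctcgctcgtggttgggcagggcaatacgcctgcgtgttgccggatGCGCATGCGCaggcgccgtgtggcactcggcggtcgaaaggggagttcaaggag
ATP5PD: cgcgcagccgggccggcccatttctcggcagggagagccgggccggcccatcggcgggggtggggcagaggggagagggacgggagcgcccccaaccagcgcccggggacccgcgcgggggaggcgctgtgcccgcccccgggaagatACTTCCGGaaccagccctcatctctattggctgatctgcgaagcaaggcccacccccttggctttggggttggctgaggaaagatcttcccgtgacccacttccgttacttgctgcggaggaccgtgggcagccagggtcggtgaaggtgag

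In media, the knockouts were compared with the same wt libraries, so that the 4 comparisons are not independent of each other. The mitochondrial share was 2.44% ± 0.198 in wt (n = 7), 2.14% ± 0.408 in neil1, 2.98% ± 0.600 in neil2 (n = 3 each), 2.27% ± 0.172 in neil3 and 2.37% ± 0.344 in neil123 (n = 4 each). All 4 knockout ranges overlapped that of wt. In neil2, line 11 (3.07% and 3.53%) lay above all wt libraries and line 12 (2.34%) among them. Limma and edgeR each called 0 of the 13 genes in all 4 comparisons. At an unadjusted p under 0.05 there was 1 gene in neil2 (7.69%, against 26.1% of all genes) and 0 in the others. The shares of all genes in the others were 9.18% (neil1), 8.32% (neil3) and 21.6% (neil123).

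The fitted mitochondrial differences from wt ran from -0.33 to -0.13 in neil1 (median -0.18), 0.17 to 0.38 in neil2 (0.30), -0.17 to -0.01 in neil3 (-0.10) and -0.12 to 0.18 in neil123 (0.02). The smallest adjusted p was 0.597, 0.170, 0.828 and 0.575 in that order. Without the label set term 1 gene was called in neil2.

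Among nuclear subunit genes in media, limma called 3 of 81 higher in neil2 (background 4.7% higher and 5.83% lower), 6 in neil123 (4.25% and 3.42%) and 0 in neil1 (0.202% and 0.147%) and neil3 (0.258% and 0.321%); none was called lower. The 0 of neil1 and neil3 stand beside 8 and 18 genes at an unadjusted p under 0.05, and edgeR called 0 in both. The 8 and 18 are 9.88% and 22.2% of the 81, against 9.18% and 8.32% of all genes. The nuclear medians were 0.05, 0.09, 0.07 and 0.11 in neil1, neil2, neil3 and neil123, against 0.01, 0.01, 0.01 and 0.00 over all genes. In neil123, 72 of 81 were above 0. Of all calls in neil123, 55.4% were higher, or 45.0% with equal totals.

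In neil123, ATP5PD, a stalk subunit of ATP synthase, had 2045, 1997, 2046 and 2410 counts (1A, 1B, 2A and 2B), above the 1456 to 1928 of the lettered wt libraries, and was higher by 0.30 ± 0.07 (adjusted p = 0.0051). NDUFA8 had 2054, 2096, 2010 and 2257, above 1678 to 1907, and was higher by 0.23 ± 0.05 (0.0011). Both calls were kept in all 11 fits without 1 library, and both were lost without the label set term. In the lettered libraries alone NDUFA8 kept its call and ATP5PD lost it. NDUFS4 (0.29), NDUFB6 (0.26), NDUFA1 (0.23) and COX4I1 (0.17) were the others; their calls were kept in 9, 9, 5 and 8 of the 11 fits. With the letter of the name as a block, NDUFA8 alone was called (0.0155; background 5.27% higher and 4.56% lower).

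In neil2, NDUFS4, an accessory subunit of complex I whose loss causes Leigh syndrome, had 793, 710 and 677 counts (rep11.1, rep11.2 and 12), above the 542 to 623 of the unlettered wt libraries, and was higher by 0.29 ± 0.09 (adjusted p = 0.0351). COX7B, a small subunit of complex IV, had 8023, 7121 and 8053, above 6310 to 6868 (0.23 ± 0.07, 0.0212). NDUFB1, an accessory subunit of complex I, had 970.5, 931.7 and 1001, above 797 to 832 (0.24 ± 0.08, 0.0390). These calls were kept in 6, 7 and 4 of 10 fits without 1 library, and none of the nuclear subunit calls of neil2 was left with the line as a random block, where 0 were called.

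**Figure D5:**
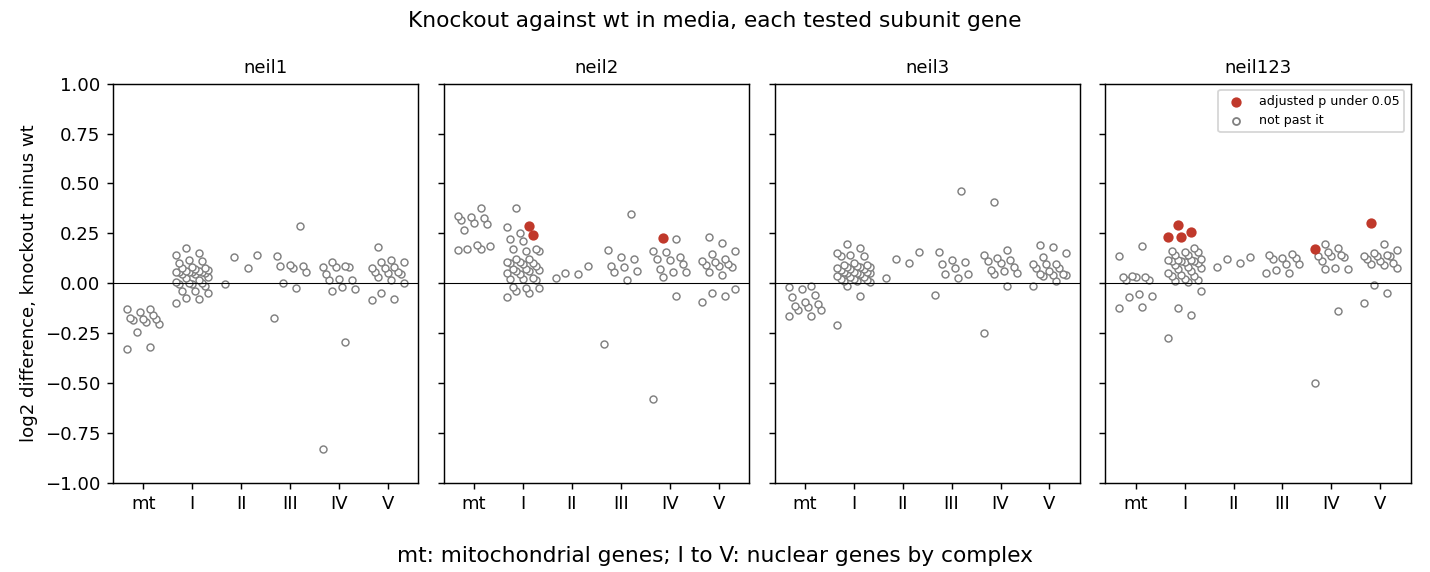
Fitted difference of each knockout from wt in media (y axis, log2) for the mitochondrial genes (mt) and the nuclear genes of complexes I to V, in 4 panels; red points passed an adjusted p of 0.05 and open points did not. The mitochondrial medians were -0.18 in neil1, 0.30 in neil2, -0.10 in neil3 and 0.02 in neil123, and the nuclear medians lay between 0.05 and 0.11.

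Whether the change with BSO differed between a knockout and wt was tested as an interaction, again with wt shared by all 4. Limma and edgeR called 0 genes of the whole table in each (background 0.0%), with 135, 662, 378 and 496 genes at an unadjusted p under 0.05 in neil1, neil2, neil3 and neil123. With the replicate block 31 genes of the whole table were called in neil2, of which 0 were mitochondrial or nuclear subunit genes. For COX1 the difference from the wt change was 0.29 ± 0.23 in neil1, -0.12 ± 0.23 in neil2, 0.12 ± 0.21 in neil3 and -0.33 ± 0.21 in neil123. In neil123 all 13 mitochondrial genes had a negative difference (-0.43 to -0.19, median -0.34). Of them 2, CYTB and ND2, were at an unadjusted p under 0.05 (15.4%, against 3.46% of all genes). The lower signed change in neil123 than in wt thus did not pass the test gene by gene. An interval of 2 SE around the COX1 difference includes 0.

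Genes that act on mitochondrial RNA were looked at as lists. With BSO in wt, 8 of 20 tested genes of mitochondrial RNA processing and stability were called lower and 0 higher, against 6.28% of all genes called lower (11 and 0 with the block, background 15.6% lower), with a median of -0.10, among them FASTKD3 (-0.24), PTCD2 (-0.22), PRORP (-0.18, the nuclease of mitochondrial RNase P) and PNPT1 (-0.16, the mitochondrial polynucleotide phosphorylase). In neil3 4 of 20 were lower, against 2.92% (9 with the block, against 10.6%), including TRMT10C (-0.26, another part of RNase P) and FASTKD5 (-0.22). In neil1, neil2 and neil123 limma called 0, with 4 lower, 1 higher and 2 lower with the block (backgrounds 3.53% lower, 3.69% higher and 3.31% lower).

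The counts below are to be read against the shares of all genes, which were 7.24% higher and 6.28% lower in wt, 0.823% and 0.321% in neil1 and 3.36% and 2.92% in neil3. Of 10 genes of mitochondrial transcription 1 fell in wt and neil1 (MTERF3, by 0.14 and 0.30) and 1 in neil3 (MRPL12, by 0.27), and of 7 tested regulators of nuclear respiratory genes 3 fell in wt: the coactivators PPARGC1B (-0.30) and PPRC1 (-0.17) and the ETS factor GABPA (-0.15). Of 12 genes of mitochondrial DNA replication TK2 rose (0.27) and POLG2 fell (-0.28) in wt. Of 48 assembly factors, 4 rose in wt (COX14 by 0.22, COX19 by 0.21, SURF1 by 0.20 and TIMMDC1 by 0.13) and COA4 fell by 0.22. In neil3 COA4, NDUFAF8 and ACAD9 fell (by 0.34, 0.25 and 0.15) and none rose; with the block 2 rose and 11 fell. None of the 15 electron carrier genes was called in any genotype, with 2 higher in wt, 1 higher in neil2 and 2 lower in neil3 with the block. With the block the shares of all genes were 16.0% higher and 15.6% lower in wt, 4.11% and 3.53% in neil1, 3.69% and 2.07% in neil2, 9.84% and 10.6% in neil3, and 5.55% and 3.31% in neil123. The block also made 2 transcription genes lower in neil1 and 1 in neil2, 3 regulators lower in neil3 and 1 in neil123, 2 replication genes lower in wt and neil3 and 1 in neil1, and of the assembly factors 6 higher and 3 lower in wt, 1 lower in neil1, 1 higher in neil2, and 1 higher and 2 lower in neil123.

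In media, FASTKD2, which encodes a mitochondrial RNA-binding protein needed for the ribosomal RNA of the organelle, was lower in every knockout, by 3.14 in neil1, 3.44 in neil2, 3.34 in neil3 and 3.17 in neil123 (log2; adjusted p = 0.0325, 0.0019, 0.0021 and 0.00069). These rest on the same wt libraries and on low counts: 6.59 to 93.7 in wt in media against 0 to 6.83 over all knockout libraries. The wt lines differed, with 6.59, 17.2 and 17.7 in media in line 1.3 and 35.5 to 93.7 in lines 1.1 and p1. The lowest value of line 1.3 lay within the range of all knockout libraries, whose highest value, 6.83, was with BSO. In media the highest knockout value was 5.92, below it. POLRMT, the mitochondrial RNA polymerase, was higher by 0.69 in neil2 (adjusted p = 0.00092), with TEFM (0.24), MRPL12 (0.26) and MTERF3 (0.21), so 4 of the 10 transcription genes were called higher there, against 4.7% of all genes, and 0 in neil1 (0.202%), neil3 (0.258%) and neil123 (4.25%). POLRMT had 3077 to 5232 counts in neil2 and 2396 to 3334 in wt, so the ranges overlapped. Also in neil2, 3 of 48 assembly factors were higher (NDUFAF7, UQCC2 and FOXRED1) and 2 of 7 regulators lower (PPRC1 and YY1, background 5.83%), and in neil123 the electron carrier ETFA was higher by 0.19.

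Copies of mitochondrial genes in nuclear DNA can take reads from the mitochondrial messengers. Of 40 such entries 9 were tested, the most abundant being MTATP6P1 (6538 to 17476), MTND2P28 (1799 to 6191) and MTCO1P12 (332 to 1275). In wt with BSO MTCO1P12 rose by 0.80, MTND2P28 by 0.38 and MTND4P12 by 1.35 (background 7.24% higher). MTND4P12 had 51.2 to 89.2 counts in media and 86.5 to 640 with BSO in wt, so the ranges overlapped. MTCO1P12 also rose in neil1 (1.09) and neil3 (0.90), MTND2P28 in neil1 (0.73) and MTND5P11, at low counts, in neil3 (1.07). In media MTND4P12 was higher by 1.65 in neil2 than in wt. Over the 21 media libraries, MTCO1P12 was the gene whose level followed the summed mitochondrial level most closely (Spearman's rho = 0.796), followed by DBP (0.769), MVB12A (0.762), CYP2S1 (0.757) and PRICKLE3 (0.744); the libraries share lines and label sets, and this likeness is a description. How reads that match both genomes were assigned is not given in the sources used here, and their part in the mitochondrial values was not tested.

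Where a subunit has more than 1 gene, the forms differed in level per length. In wt in media COX6B1 had 4886 ± 1131 counts per kilobase (SD, n = 7) and COX6B2 7.38, and NDUFA4 1071 ± 185 and NDUFA4L2 16.5. COX7A2 had 1164 ± 116 and its relative COX7A2L 410 ± 88.4. Before division by their exon lengths of 1922 and 5605 bases, the last pair had near-equal mean counts over all libraries (2451 and 2488). The genes of the c ring of ATP synthase, which encode the same mature protein, had 1839 ± 124 (ATP5MC2), 1144 ± 100 (ATP5MC1) and 1051 ± 44.3 (ATP5MC3) per kilobase. For the last 2 the ranges of SD overlapped. Mean counts over all libraries were 7677 for ATP5MC2, 3013 for ATP5MC1 and 7324 for ATP5MC3, with exon lengths of 3991, 2615 and 6780 bases. With BSO in wt, ATP5MC2 changed by 0.12, ATP5MC1 by -0.0069 and ATP5MC3 by 0.01, none past the threshold; with the block ATP5MC2 was called higher (adjusted p = 0.0190).

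The 4 genes of complex II, which have no mitochondrial partner, stayed close to their media levels. In wt their lowest, median and highest counts in media and with BSO were 946, 995 and 1092 against 954, 1004 and 1123 for SDHA, the flavoprotein, and 3716, 3890 and 4366 against 3731, 3902 and 4562 for SDHB, the iron-sulfur subunit. Those of the membrane anchors were 1607, 1820 and 2344 against 1632, 1896 and 2717 for SDHC and 1372, 1875 and 2304 against 1576, 1671 and 2599 for SDHD. All 4 overlapped. The fitted changes were 0.02 to 0.11, and with the block SDHC was called higher (adjusted p = 0.0375).

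ATP5IF1, which blocks ATP hydrolysis by complex V, had 3671 to 4638 counts in all libraries and no call with BSO (-0.08 to 0.07). The antisense and divergent transcripts NDUFB2-AS1, NDUFV2-AS1 and NDUFA6-DT had means of 16.9, 23.8 and 30.8 and no call in any comparison. Among nuclear subunit genes, UQCRH and UQCRHL, near-identical copies of the complex III hinge subunit, had 2927 to 5912 and 416 to 1333 counts and no call with BSO, and their reads may be split between them. No strand setting is given in the sources used here, so reads of the antisense genes and their partners cannot be told apart.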

How the data were processed

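RNA of 42 libraries in 10 groups was taken from 1 table of the authors' deposited normalized signal (whole read counts per gene divided by a size factor per library). Per the submitters' processing notes, Trim Galore, HISAT2, SAMtools, featureCounts and DESeq2 were used with GRCh38 (hg38); versions, strand setting and the treatment of shared reads: not given in the sources used here. The libraries were built from total RNA, per the labels' protocols. Divided by the value of 1 read in their column (0.941 to 1.04), 100% of the values above 0 were whole numbers (relative tolerance 1e-06). Library depth was 26.8 M to 30.7 M reads. Depths given here count only the recovered reads of entries with a symbol. The library total used for shares is likewise the sum of normalized counts over entries with a symbol.

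Differences were tested with limma 3.58.1 (trend option, R 4.3.3) after adding 1 and taking log2. The fit covered 14331 genes that have a symbol and average at least 10, in all 42 libraries, with 10 group terms and 1 for the label set, with Benjamini-Hochberg adjusted p under 0.05 in each of 13 comparisons. All p-values called adjusted are over the whole table, and no p was computed for a list. Fold changes of low genes are understated on this scale. The fit was tested on simulated data with libraries drawn independently of each other, so that check does not cover correlation within lines or pairs.

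The replicate names were taken to pair BSO with media libraries. In all 21 pairs the deviations from group means correlated across genes (r = 0.375 to 0.849). With means taken within the label set, the 7 wt pairs gave 0.193 to 0.426. Libraries of different names were not compared, and both members of a pair share a line. These correlations therefore cannot show that the names pair libraries, and the blocked values rest on that reading of the names. Blocked values are printed where they altered a call or a count (over 1.5 times). In media the block was the letter of the name.

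Alternatives were edgeR 4.0.16 (quasi-likelihood) on the recovered reads, a pseudocount of 5, no filter, equal totals, no label set term, own label set only, line as a random block, the replicate block and leaving out each library. By rule, the text names the 13 mitochondrial genes; up to 2 rises and 2 falls per complex and comparison among nuclear genes past the threshold; paralogs, complex II and ATP5IF1 whatever their test; up to 3 genes per companion list and comparison; and the 5 genes most like the mitochondrial sum. NDUFA12, COX5A, NDUFA8 and NDUFA1 in media, the low NDUFV2, NDUFA7 and NDUFA13, further genes of the companion lists and those gained by the block were added after their values were seen. The members and all gene lists were chosen with earlier results of these data known. Gene lengths are from the file's GENCODE annotation, promoter sequences from RefSeq (GRCh38.p14), and mitochondrial sequences from the reference genome.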

Additional observations from a re-analysis of the deposited data

Results flagged for a closer look

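Of 135 groups of values examined, 21 held a value far from the others; chance alone sets such a value apart in about 1 in 20 groups, and the genes and sums below are not independent of each other. In the wt libraries with BSO, library 1.3 was far above the rest for ND1 (90369), COX1 (266818), COX2 (148909), ATP6 (90403), COX3 (150655), ND4 (194769), ND5 (54021), CYTB (91035) and the sum of the 13 mitochondrial genes (1251400, with 898326 as the next highest). Pair 1.3 was also highest for the ATP6 change (0.73 on the log2 scale, next 0.21). For ATP8, pair 1.1 was lowest (-0.56, next -0.06).

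In neil3 in media, library 1A was low for COX3 (95994, next 113756) and for the sum (557603, next 644323). In neil123 in media, library 1A was low for ND1 (40670), ND2 (36424), COX1 (91653), ND3 (19565), ND4 (73221), ND5 (24982), ND6 (3640) and the sum (526535, next 694732).

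The ATP8 change with BSO was above 0 in all 3 neil1 pairs (mean 0.50) and below 0 in all 4 neil123 pairs (mean -0.32), a difference of means of 0.81. The difference was not tested, and the genotypes belong to different label sets.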

How the results depend on the processing

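In mitochondrial genes called with BSO, the counts of wt (7) and neil3 (7) lay within 1.5 times in all alternatives except that neil3 gave 3 to 7 when 1 library was left out. The neil1 count (6) went to 11 with the replicate block, to 0 in its own label set and from 0 to 7 without 1 library; those of neil2 and neil123 (0) went to 7 and 2 with the replicate block. Nuclear subunit genes called with BSO depended more on the setting. In wt (8) they were 23 with the replicate block, 3 in the lettered libraries, 3 without the label set term and 5 to 12 without 1 library. In neil3 (3) they were 9, 0 without the label set term, 1 in its own label set and 0 to 2 without 1 library. In neil1 (0) they were 3 with the replicate block, 1 with the line block and 0 to 1 without 1 library, and in neil2 and neil123 (0) they were 1 and 3 with the replicate block.

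In media, the nuclear count of neil123 (6) was 1 with the replicate block, 2 with the line block, 1 in its own label set and 2 to 8 without 1 library. Without the label set term it was 1, a gene not among the 6. That of neil2 (3) was 5 with equal totals, with or without the mitochondrial genome, 0 with the line block, 26 without the label set term, 0 in its own label set and 0 to 5 without 1 library; its mitochondrial count (0) was 1 without the label set term and 0 to 1 without 1 library. The mean nuclear sum change of neil2 (0.0224) was -0.0104 with equal totals, that of neil1 went from 0.0021 to -0.0118 and that of wt from 0.0576 to 0.0363. The cause of these shifts was not tested. For single genes, 1357 values were on the same side of the threshold in the same direction, 158 lost a call, 26 gained one, 20 moved and 0 reversed. The correlation within lines was 0.206. At these depths counts below about 10 per library limit what can be said of the lowest members, and 3 or 4 pairs per knockout limit the interactions.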
